A study of Mus musculus with 32 samples.

Results

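Cyclic nucleotide phosphodiesterases are the enzymes that break down cAMP and cGMP. The 10 genes described here (Pde10a, Pde1a, Pde1b, Pde1c, Pde2a, Pde4a, Pde4b, Pde4d, Pde7b and Pde8b) were taken as a list of symbols, matched by GENCODE M21 to the Ensembl identifiers of the deposited count table. They are 10 of the 54532 genes in that table and 10 of the 24 mouse genes with a cyclic nucleotide phosphodiesterase symbol. All 10 passed the filter on low counts.

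The RNA came from the striatum of 32 mice aged 6 months, and each library is 1 mouse. The groups were WT, Msh3-/-, zQ175 and zQ175:Msh3-/-, with 8 mice each. Every group held 4 males and 4 females except zQ175:Msh3-/-, which held 5 males and 3 females. zQ175 is a knock-in line: its expanded CAG repeat sits in the mouse's own Htt gene, so the mutant allele is expressed wherever Htt is. Msh3-/- mice lack exons 3 to 8 of Msh3, a mismatch repair gene, after CRISPR deletion. The genotypes were littermates on a C57BL/6J background. The study asked whether loss of Msh3 alters the striatal changes of zQ175 mice. Total counts ran from 12359347 to 25030335 per mouse, with medians of 17957804.5, 17593185, 15903741 and 16225613.5 in WT, Msh3-/-, zQ175 and zQ175:Msh3-/- mice.

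Dopamine, adenosine and nitric oxide change cAMP and cGMP in the spiny projection neurons of the striatum, and phosphodiesterases end those signals. The families differ in what they cut and in what controls them. The PDE1 enzymes are switched on by calcium and calmodulin, and PDE2 is switched on by cGMP. PDE10 is among those that cut both nucleotides, and PDE4, PDE7 and PDE8 cut cAMP. PDE10A is known for its high level in spiny projection neurons, and PDE1B is also abundant there.

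Msh3, the deleted gene, was measured first. In CPM (counts scaled to library size by TMM), its lowest, median and highest values were 22.9, 23.7 and 27.5 in WT mice and 22.8, 24.1 and 27.4 in zQ175 mice. They were 10.4, 11.5 and 13.6 in Msh3-/- mice and 11.1, 12.8 and 14.2 in zQ175:Msh3-/- mice. Every mouse with the deletion lay below every mouse without it. Reads were still counted for Msh3 in each mouse with the deletion, and counts per gene do not tell which exons those reads cover. The study reported, in cortex of Msh3-/- mice, that Msh3 RNA measured by PCR within the deleted region was ablated. By western blot it did not detect MSH3 protein in that tissue.

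The tissue label was checked against markers. The summed level of 10 spiny projection neuron markers ran from 6966 to 8412 TPM (a level adjusted for gene length) in WT mice, and the most abundant of them was Ppp1r1b. No marker of that list had a median count of 0. The summed level of 4 thalamic and hypothalamic markers ran from 3.90 to 12.7 TPM over all mice, with Tcf7l2 the most abundant, and Hcrt had a median count of 0. The 6 cortical excitatory markers summed to between 140.05 TPM in a zQ175 mouse and 645 TPM in a zQ175:Msh3-/- mouse. Slc17a7 and Lamp5 made up most of this sum: Slc17a7 ran from 20.9 to 422 TPM over the mice, and Lamp5 from 97.3 to 132 TPM. The 3 choroid plexus markers, led by Ttr, ran from 29.6 to 5663 TPM. Spiny projection neuron markers were present in every mouse, and the level of cortical and choroid plexus markers differed widely between mice.

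Promoter windows from RefSeq, each 300 bases from 250 before to 50 after a start site on build GRCm38.p6, cover all 10 genes with 31 windows. They were searched on both strands for the full cAMP response element TGACGTCA and for its half-site TGACG, which lies inside the full element. Of all 32851 windows, 588 (1.79%) hold the full element and 6837 (20.8%) hold the half-site. Of the 31 windows here, 0 hold the full element and 5 hold the half-site, 1 each at Pde1a, Pde2a, Pde4a, Pde4b and Pde8b. A match describes the letters in a window and nothing more. The windows printed belong to 5 of the 6 genes called between zQ175 and WT mice, and are shown so that their starts can be read side by side. Both Pde10a windows are given, the Pde1b window is at the annotated gene start, and the Pde2a window is the one that holds the half-site. Each reads 5′ to 3′ on the strand of the gene, and capitals mark the half-site, which reads CGTCA when it lies on the opposite strand.

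Pde10a, chr17:8801495-8801794, plus strand: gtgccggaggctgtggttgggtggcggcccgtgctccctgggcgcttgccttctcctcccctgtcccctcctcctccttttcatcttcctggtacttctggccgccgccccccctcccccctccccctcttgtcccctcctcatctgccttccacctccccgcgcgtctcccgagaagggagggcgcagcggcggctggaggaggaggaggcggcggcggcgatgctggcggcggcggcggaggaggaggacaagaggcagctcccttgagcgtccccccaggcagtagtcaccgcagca
Pde10a, chr17:8849735-8850034, plus strand: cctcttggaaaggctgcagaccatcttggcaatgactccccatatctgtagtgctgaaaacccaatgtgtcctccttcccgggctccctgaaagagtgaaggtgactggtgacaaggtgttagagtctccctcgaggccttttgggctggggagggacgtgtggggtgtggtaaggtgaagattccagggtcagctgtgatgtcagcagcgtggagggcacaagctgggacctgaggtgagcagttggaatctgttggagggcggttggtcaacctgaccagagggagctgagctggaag
Pde1b, chr15:103502784-103503083, plus strand: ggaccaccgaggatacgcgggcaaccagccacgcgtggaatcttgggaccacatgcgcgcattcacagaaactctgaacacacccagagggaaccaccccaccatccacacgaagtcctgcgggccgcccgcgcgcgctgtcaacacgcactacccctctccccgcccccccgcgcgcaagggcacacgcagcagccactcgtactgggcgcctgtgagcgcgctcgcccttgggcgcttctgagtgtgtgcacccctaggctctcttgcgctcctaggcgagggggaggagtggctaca
Pde7b, chr10:20548279-20548578, minus strand: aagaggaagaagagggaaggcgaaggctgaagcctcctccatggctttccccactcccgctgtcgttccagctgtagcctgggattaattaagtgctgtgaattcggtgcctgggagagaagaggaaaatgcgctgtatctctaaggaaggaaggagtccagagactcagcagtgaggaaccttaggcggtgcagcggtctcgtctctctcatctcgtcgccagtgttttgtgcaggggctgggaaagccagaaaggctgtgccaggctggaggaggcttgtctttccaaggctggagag
Pde2a, chr7:101450270-101450569, plus strand: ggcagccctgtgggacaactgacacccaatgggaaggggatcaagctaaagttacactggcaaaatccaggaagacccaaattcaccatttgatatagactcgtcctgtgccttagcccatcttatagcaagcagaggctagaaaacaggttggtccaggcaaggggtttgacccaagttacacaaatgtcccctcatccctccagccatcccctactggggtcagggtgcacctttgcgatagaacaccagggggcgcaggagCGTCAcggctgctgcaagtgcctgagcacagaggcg
Pde4d, chr13:108653927-108654226, plus strand: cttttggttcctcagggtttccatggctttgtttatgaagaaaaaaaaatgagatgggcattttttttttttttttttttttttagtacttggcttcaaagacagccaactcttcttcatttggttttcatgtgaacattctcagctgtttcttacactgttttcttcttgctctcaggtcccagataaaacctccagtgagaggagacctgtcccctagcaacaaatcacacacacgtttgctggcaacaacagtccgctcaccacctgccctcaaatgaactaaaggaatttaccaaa

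Among these 6 windows the capitals appear only at Pde2a, at base 14 after the start site. The 2 Pde10a windows, and those of Pde7b, Pde2a and Pde4d, lie inside the annotated genes and not at the annotated gene starts. G and C make up 71.3% and 56.7% of the Pde10a windows and 67% of the Pde1b window. They make up 55.7% of the Pde7b window, 54.7% of the Pde2a window and 39.7% of the Pde4d window.

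The levels of the 10 genes differed widely. In WT mice, mean TPM was 1166 for Pde1b (SD 92.1, n = 8), 579 for Pde10a (SD 50.8) and 413 for Pde2a (SD 32.2). Pde7b followed at 183, Pde4b at 106 and Pde8b at 95.1. The other 4 were lower, with Pde4a at 35.2, Pde1a at 28.4, Pde4d at 21.8 and Pde1c at 15.5. The ranges of neighbours in this order were separate except in 3 places. The ranges of Pde4b and Pde8b overlapped, as did those of Pde4a and Pde1a and those of Pde1a and Pde4d. Of the TPM summed over the 24 genes, the 10 made up 94.8% in WT mice, and Pde1b alone made up 41.8%. This sum counts Pde6d, at 81.7 TPM in WT mice, which encodes a carrier of prenylated proteins.

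The first comparison asked what the zQ175 allele does in mice with intact Msh3, and the second asked the same in mice without Msh3. They share no mouse. A gene was called when its edgeR p, adjusted over the 16610 genes tested, was under 0.05 and its fold change was at least 1.2. Between zQ175 and WT mice, 6 of the 10 genes were called, where 11.6% of all genes tested were. Pde10a, Pde1b, Pde7b, Pde2a and Pde1c were lower in zQ175 mice, against 6.89% of all genes, and Pde4d was higher, against 4.7%. The same 6 genes were called in the same directions between zQ175:Msh3-/- and Msh3-/- mice, where 10.6% of all genes were called, 5.96% lower and 4.68% higher. The median log2 fold change of the 10 was −0.26 in the first comparison and −0.23 in the second, beside 0.01 and 0.01 over all genes tested. Among all genes the balance of directions depended on the method: by edgeR on counts 1144 were lower and 781 higher in zQ175 than in WT mice, and by limma on TPM, with 22274 genes tested, 880 were lower and 1316 higher. Scale, test and genes tested all differ between these, and their parts were not separated. The direction of each of the 6 was the same on TPM.

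**Figure D1:**
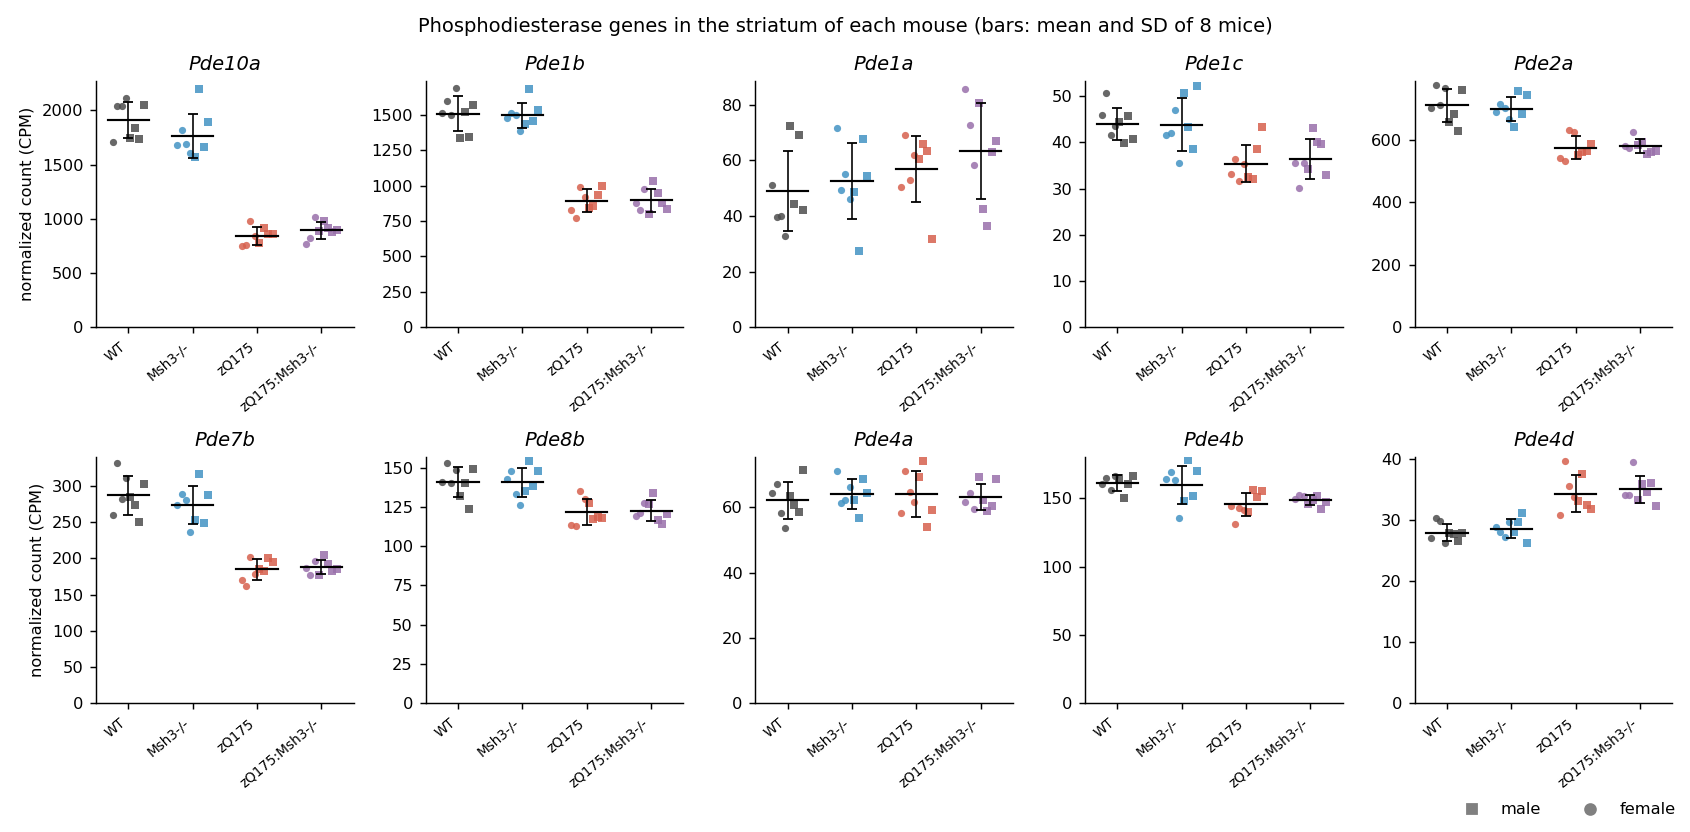
CPM (vertical axes, from 0) of each of the 10 genes in each mouse by genotype, squares for males and circles for females, with the mean and SD of 8 mice as bars. Pde10a in the zQ175 mice lies between 746 and 976 CPM, below the lowest WT mouse at 1713 CPM.

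Pde10a (ENSMUSG00000023868, chr17:8525372-8986648) encodes a dual-substrate enzyme of spiny projection neurons. Its lowest, median and highest values were 1713, 1938 and 2117 CPM in WT mice. In zQ175 mice they were 746, 848 and 976 CPM. All 8 zQ175 mice lay below all 8 WT mice, with a wide gap between the groups. The log2 fold change was −1.18 (SE 0.0670, adjusted p = 2.84e-15 by edgeR), so that 44.1% of the WT level remained. Without Msh3, Pde10a was at 1569.8, 1686 and 2199 CPM, and with the zQ175 allele as well at 763, 892 and 1015 CPM. The groups again did not overlap. There the log2 fold change was −0.98 (SE 0.0668, adjusted p = 3.04e-13 by edgeR), with 50.6% remaining. Pde10a was called under all 31 alternatives of each comparison. In bulk tissue, fewer cells that express a gene and less of its RNA in each cell cannot be told apart, and this holds for every difference given here.

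The 3 PDE1 genes, whose enzymes calcium and calmodulin control, differed from one another. Pde1b (ENSMUSG00000022489, chr15:103503034-103530052) had a lowest, median and highest value of 1337, 1516 and 1692 CPM in WT mice and 773, 888 and 998.99 CPM in zQ175 mice. They were 1382, 1488 and 1681 CPM in Msh3-/- mice and 802, 875 and 1034 CPM in zQ175:Msh3-/- mice. Neither pair of groups overlapped. Pde1b fell by 0.76 on the log2 scale in zQ175 against WT mice (SE 0.0554, adjusted p = 3.64e-13 by edgeR) and by 0.74 without Msh3 (SE 0.0554, adjusted p = 1.04e-12). That left 59.2% and 59.9% of the level, and Pde1b was called under all 31 alternatives of each comparison.

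Pde1c (ENSMUSG00000004347), a PDE1 gene of low level in this tissue, was at 39.97, 44.0 and 50.7 CPM in WT mice, given again as lowest, median and highest. In zQ175 mice it was at 31.7, 34.1 and 43.3 CPM, and 7 of 8 lay below every WT mouse. The log2 fold change was −0.32 (SE 0.0758, adjusted p = 0.00165 by edgeR). The call was lost in males alone, with a log2 fold change of −0.23, and with the cortical marker level in the model, with −0.25. Without Msh3, Pde1c was at 35.6, 42.7 and 52.2 CPM, and in zQ175:Msh3-/- mice at 30.1, 35.5 and 43.2 CPM, with 5 of 8 below every Msh3-/- mouse. These groups overlapped more. The log2 fold change of −0.27 (SE 0.0763, adjusted p = 0.00877 by edgeR) stood just past the 1.2-fold limit and was called in 18 of 31 alternatives. It was lost without Msh3-/- male 1 (−0.24), male 4 (−0.23) or female 3 (−0.25), and without zQ175:Msh3-/- male 1 (−0.26), male 5 (−0.25) or female 2 (−0.23). It was also lost on TPM (−0.18), in males alone (−0.28), with the replicate number as a block (−0.26), and with the cortical marker level in the model (−0.19).

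Pde1a (ENSMUSG00000059173) was not called in either comparison. Its lowest, median and highest values were 32.7, 43.2 and 72.4 CPM in WT mice and 31.7, 61.1 and 69.0 CPM in zQ175 mice. Without Msh3 they were 27.5, 51.9 and 71.6 CPM, and in zQ175:Msh3-/- mice 36.5, 65.0 and 85.6 CPM. The zQ175 mice all lay within or just below the WT range, and 3 of 8 zQ175:Msh3-/- mice lay above every Msh3-/- mouse. The log2 fold changes were 0.21 (SE 0.196, adjusted p = 0.477 by edgeR) and 0.27 (SE 0.196, adjusted p = 0.341). The approximate 95% intervals from these standard errors ran from −0.17 to 0.60 and from −0.11 to 0.66, which include both 0 and changes past the 1.2-fold limit.

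Pde2a (ENSMUSG00000110195, chr7:101421691-101512827), the gene of the cGMP-activated enzyme, was at 629, 707 and 777.1 CPM in WT mice and at 534, 563 and 632 CPM in zQ175 mice, as lowest, median and highest. All but 1 of the zQ175 mice lay below every WT mouse. The log2 fold change was −0.31 (SE 0.0424, adjusted p = 6.15e-07 by edgeR), and on TPM it was −0.25, short of the 1.2-fold limit. Without Msh3 the values were 643, 697 and 759 CPM and, in zQ175:Msh3-/- mice, 557, 579 and 627 CPM. These groups did not overlap, and the log2 fold change was −0.27 (SE 0.0424, adjusted p = 6.31e-06 by edgeR). That size was close to the limit, and Pde2a was called in 22 of 31 alternatives. It was lost without Msh3-/- male 2 (−0.25) or male 4 (−0.26), with the replicate number as a block (−0.26), on TPM (−0.20), in females alone (−0.22) and with the cortical marker level in the model (−0.25). A predicted protein-coding gene on the same strand, Gm45837, shares 3955 exon bases with Pde2a, which is 64.3% of the Pde2a exon bases, and over all mice it was given 764 counts beside 348529 for Pde2a.

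Pde7b and Pde8b encode cAMP-specific enzymes outside the PDE4 family. Pde7b (ENSMUSG00000019990, chr10:20398004-20725078) was at 250.4, 283 and 331 CPM in WT mice and at 163, 184 and 202 CPM in zQ175 mice. It was at 236, 277 and 317 CPM in Msh3-/- mice and at 177, 186 and 204 CPM in zQ175:Msh3-/- mice. Neither pair of groups overlapped. The log2 fold changes were −0.63 (SE 0.0554, adjusted p = 2.86e-11 by edgeR) and −0.54 (SE 0.0554, adjusted p = 1.58e-09), leaving 64.5% and 68.7% of the level.

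Pde8b (ENSMUSG00000021684) differed by less. Its lowest, median and highest values were 124, 140.4 and 153 CPM in WT mice and 113, 118 and 135 CPM in zQ175 mice, and 5 of 8 zQ175 mice lay below every WT mouse. Without Msh3 they were 126, 140.4 and 154 CPM, and 114, 121 and 134 CPM in zQ175:Msh3-/- mice, where again 5 of 8 lay below. The log2 fold changes of −0.21 (adjusted p = 0.000384 by edgeR) and −0.20 (adjusted p = 0.000930) passed the p threshold and did not reach 1.2-fold. A gene on the opposite strand, Gm48420, shares 447 bases (7.60%) of the Pde8b exons and was given 398 counts over all mice, beside 71270 for Pde8b. Whether the counting used the strand of the reads is not stated in the sources used here.

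The PDE4 genes, whose enzymes cut cAMP and are the targets of rolipram, differed from one another. Pde4d (ENSMUSG00000021699, chr13:108449948-109953461) had a lowest, median and highest value of 26.3, 27.7 and 30.4 CPM in WT mice and 30.8, 33.5 and 39.6 CPM in zQ175 mice. They were 26.2, 28.4 and 31.1 CPM in Msh3-/- mice and 32.3, 34.4 and 39.4 CPM in zQ175:Msh3-/- mice. All 8 mice with the zQ175 allele lay above all 8 without it in each comparison. The log2 fold changes were 0.30 (SE 0.0472, adjusted p = 7.05e-06 by edgeR) and 0.29 (SE 0.0475, adjusted p = 1.24e-05). In the second comparison the call was lost in males alone, at 0.26.

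Pde4b (ENSMUSG00000028525) had log2 fold changes of −0.15 (adjusted p = 0.00548 by edgeR) and −0.11 (adjusted p = 0.0543), under 1.2-fold in each comparison. Its medians in WT, Msh3-/-, zQ175 and zQ175:Msh3-/- mice were 163, 164, 144 and 149 CPM. Pde4a (ENSMUSG00000032177) had medians of 62.02, 63.3, 63.0 and 61.9 CPM in the same order, and its groups overlapped. Its log2 fold changes were 0.04 (adjusted p = 0.653 by edgeR) and −0.02 (adjusted p = 0.846).

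**Figure D2:**
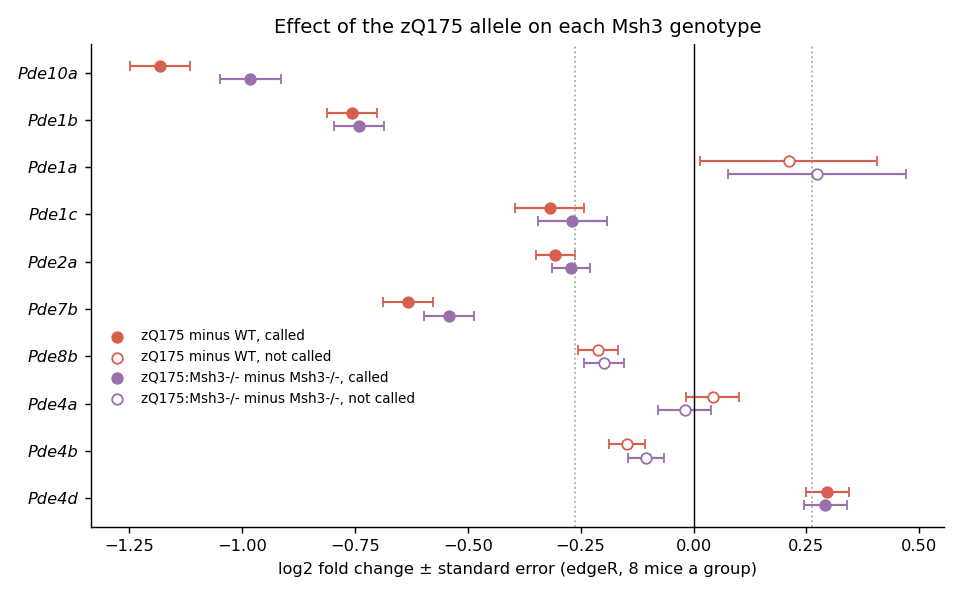
Log2 fold change (horizontal axis) with its standard error for each gene in zQ175 against WT mice and in zQ175:Msh3-/- against Msh3-/- mice, 8 mice a group, with filled points for called genes and dotted lines at 1.2-fold. Pde10a lies farthest from 0, at −1.18 and −0.98, and Pde4d is the called gene on the higher side, at 0.30 and 0.29.

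The order of the levels was not the same in mice with the zQ175 allele. Pde10a TPM divided by Pde2a TPM in the same mouse was over 1 in 8 of 8 WT mice, from 1.27 to 1.495, and in 8 of 8 Msh3-/- mice, from 1.26 to 1.52. It was over 1 in 0 of 8 zQ175 mice, from 0.696 to 0.853, and in 0 of 8 zQ175:Msh3-/- mice, from 0.679 to 0.885. Pde2a RNA stood above Pde10a RNA per length in all 16 mice with the zQ175 allele, and below it in all 16 without. How reads in the exons that Pde2a shares with Gm45837 were assigned is not given in the sources used here, so the place of this ratio relative to 1 may depend on it. The rest of the order was the same in the mean of all 4 groups, with overlap between Pde4a and Pde1a and between Pde1a and Pde4d in each.

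Pde10a also differed more than Pde1b, the most abundant of the 10. The log2 ratio of Pde10a to Pde1b CPM in the same mouse, in which library scaling cancels, ran from 0.18 to 0.45 in WT mice (mean 0.34, SD 0.0818) and from −0.22 to 0.10 in zQ175 mice (mean −0.09, SD 0.0997). No zQ175 mouse reached the lowest WT mouse. The difference of −0.43 had a two-sided p of 0.000155 by exact permutation, the smallest value possible with 8 mice in each group. In Msh3-/- mice the ratio ran from 0.13 to 0.39 (mean 0.23, SD 0.0823) and in zQ175:Msh3-/- mice from −0.19 to 0.15 (mean −0.00, SD 0.109). These ranges overlap, and the difference of −0.24 had a two-sided p of 0.000311 by exact permutation.

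**Figure D3:**
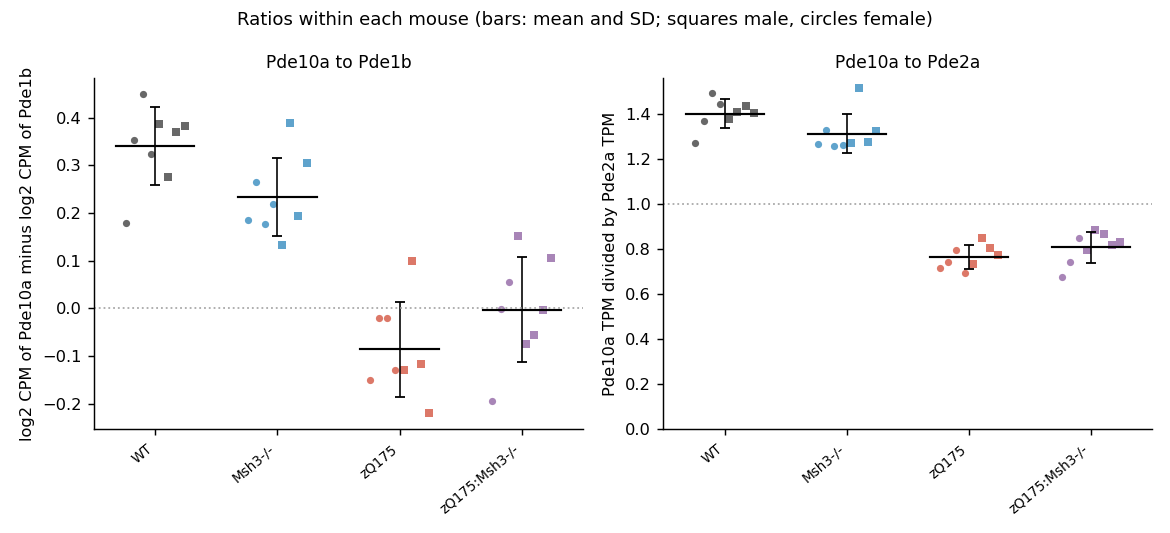
Left, log2 CPM of Pde10a minus log2 CPM of Pde1b in each mouse by genotype; right, Pde10a TPM divided by Pde2a TPM; squares are males, circles are females, and bars are the mean and SD of 8 mice. On the right all WT and Msh3-/- mice lie above 1, at 1.26 or more, and all zQ175 and zQ175:Msh3-/- mice lie below 1, at 0.885 or less.

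The summed level of the family was lower in mice with the zQ175 allele. Summed TPM of the 24 genes averaged 2789 in WT mice, with a range from 2568 to 3023, and 2734 in Msh3-/- mice, with a range from 2550.2 to 3050.4. It averaged 1894 in zQ175 mice, from 1758 to 2039, and 1948 in zQ175:Msh3-/- mice, from 1824 to 2121. Mice with and without the zQ175 allele did not overlap. This sum, in which Pde6d is counted, was not tested. Within it, Pde10a made up 20.7% in WT and 14.0% in zQ175 mice, Pde1b 41.8% and 37.4%, and Pde2a 14.8% and 18.4%. Pde7b made up 6.55% and 6.56%, nearly the same share, and the 10 genes together made up 94.8% and 92.2%.

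**Figure D4:**
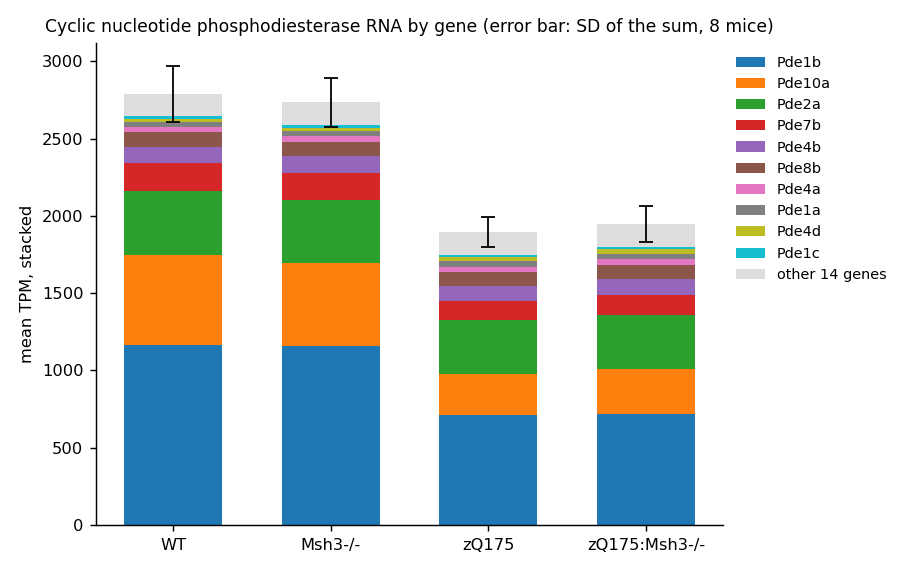
Mean TPM of the phosphodiesterase genes stacked by genotype (vertical axis from 0), with the 14 other genes as 1 block and the SD of the sum over 8 mice as the error bar. The stack is 2789 TPM high in WT mice and 1894 TPM high in zQ175 mice.

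Loss of Msh3 was then compared on its own and in zQ175 mice. Of the 10 genes, edgeR called 0 for Msh3-/- against WT, where 0.00602% of all genes were called, and 0 for zQ175:Msh3-/- against zQ175, where 0.00602% were called again. That share is 1 gene in each comparison, Msh3 itself, named after its values were seen. At an unadjusted p under 0.05 there were 0 of the 10 in each, beside 846 and 614 of all genes, and DESeq2 also called 0 of the 10. Between Msh3-/- and WT mice the log2 fold changes ran from −0.11 for Pde10a to 0.09 for Pde1a, with a smallest adjusted p of 0.926. Between zQ175:Msh3-/- and zQ175 mice they ran from −0.02 for Pde4a to 0.15 for Pde1a, with a smallest adjusted p of 0.999. Apart from Pde1a, the approximate 95% intervals from the standard errors lay within −0.24 to 0.15 in the first and within −0.14 to 0.22 in the second. Pde10a was at 0.09 in the second (SE 0.0662), with an interval from −0.04 to 0.22, beside its zQ175 difference of −1.18.

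Whether the zQ175 difference itself depends on Msh3 was tested as an interaction, for which edgeR called 0 of the 10 genes and 0% of all genes. Pde10a was the 1 gene of the 10 with an unadjusted p under 0.05, where 737 of all genes were. Its interaction was 0.20 (SE 0.0935), a smaller drop without Msh3, with an adjusted p of 0.999. The other 9 ran from −0.06 for Pde4a to 0.09 for Pde7b, and DESeq2 also called 0. The zQ175 difference was compared between the sexes in the same way, and 0 of the 10 genes passed, beside 0% of all genes. There 0 of the 10 and 847 of all genes had an unadjusted p under 0.05 by edgeR, and DESeq2 called 0 of the 10. These differences between males and females ran from −0.36 for Pde1a to 0.11 for Pde1c. Between males and females of all genotypes, 0 of the 10 were called by edgeR, beside 0.138% of all genes. At an unadjusted p under 0.05 there were 0 of the 10 and 1629 of all genes, and DESeq2 called 0 of the 10.

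Within a genotype, Pde1a varied most of the 10. Its coefficient of variation in WT, Msh3-/-, zQ175 and zQ175:Msh3-/- mice was 29.5%, 25.9%, 20.9% and 27.2%, beside medians over all genes tested of 8.94%, 9.21%, 9.14% and 9.32%. The other 9 genes ran from 2.37% to 13.1%. The level of cortical excitatory markers moved with Pde1a, which was seen in the data and then measured. The 6 markers summed to 143 to 346 TPM in WT and 145 to 461 TPM in Msh3-/- mice. They summed to 140.05 to 433 TPM in zQ175 and 224 to 645 TPM in zQ175:Msh3-/- mice, and 0 of the 6 had a median count of 0. In the mice with the lowest sums Lamp5, which varied little, made up most of the sum, so the sum spans a narrower range than Slc17a7 does. A sum without Lamp5 was not tried. Over the 32 mice, with each genotype's mean taken off, Pde1a and the log2 sum had a Pearson r of 0.825 and a Spearman rho of 0.759. Without the 2 mice farthest from the median marker level on the log2 scale, WT male 2 at 143 TPM and zQ175 male 4 at 140.05 TPM, r was 0.810 and rho 0.741. The mouse with the highest marker level, at 645 TPM, was kept in. These correlations describe a pattern already seen in the same mice, so no p is given.

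Put into the edgeR model beside genotype, that marker level had an adjusted p under 0.05 for 4 of the 10 genes, where 10.8% of all genes tested, the 6 markers left out, passed. These 4 include Pde1a, whose pattern was already seen in the same mice, so its p is not given. The slope of log2 Pde1a on the log2 marker sum was 0.61 (SE 0.0816). The slopes were 0.13 for Pde4a, −0.14 for Pde1b and −0.16 for Pde1c. At a given marker level, the Pde1a differences turned sign, to −0.06 in zQ175 against WT mice and −0.05 without Msh3, neither called. Of the 6 markers, 0 were called by edgeR in either zQ175 comparison, 0 had an unadjusted p under 0.05 and DESeq2 called 0, and their median log2 fold change was 0.61 in each zQ175 comparison. The part of this marker level in the genotype differences of Pde1a was not tested in any other way. For Pde10a, Pde1b, Pde7b and Pde4d the calls stood with the marker level in the model.

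**Figure D5:**
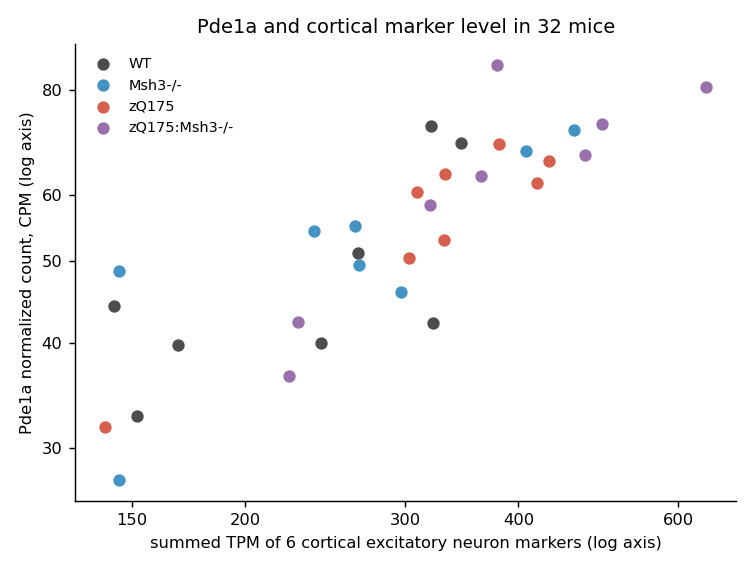
Pde1a in CPM (vertical, log axis) against the summed TPM of 6 cortical excitatory neuron markers (horizontal, log axis) in each of 32 mice, coloured by genotype. Mice with more marker RNA have more Pde1a on average; the lowest Pde1a is 27.5 CPM at 144.9 TPM, and the highest is 85.6 CPM at 379 TPM.

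The genes whose values over the 32 mice lay nearest to those of Pde10a and Pde1b were sought among 10140 genes of at least 10 CPM. Likeness was the root mean square difference of log2 CPM, each gene less its WT mean. Nearest to Pde10a were Lrrc10b (0.123), Neto2 (0.126), Arpp21 (0.144), Adora2a (0.152) and Coch (0.154), beside a median of 0.831 over all candidates. Nearest to Pde1b were Adcy5 (0.0712), Drd1 (0.0715), Rasgrp2 (0.0720), Drd2 (0.0755) and Kcnab1 (0.0766), beside a median of 0.560.

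Of all genes tested, 6.89% and 5.96% were called lower in the zQ175 comparisons. Of the 10 spiny projection neuron markers, 9 were called lower in each zQ175 comparison, and Tac1 was not. Their summed mean level was 7767 TPM in WT and 4585 TPM in zQ175 mice, and 7714 and 4638 TPM without Msh3. Their median log2 fold change was −0.80 and −0.74. The part of this in the phosphodiesterase differences was not tested. The genes called in the other marker lists are given next, where 11.6% and 10.6% of all genes tested were called. Of the 5 oligodendrocyte markers, Mobp was called lower in zQ175 against WT mice (−0.33). Of the 5 vascular markers, Flt1 was called lower there (−0.33). Without Msh3, edgeR and DESeq2 called 0 of either list, and 2 and 3 had an unadjusted p under 0.05. Of the 5 interneuron markers, Chat was lower in each comparison (−0.27 and −0.32) and Th was lower without Msh3 (−0.43). By edgeR and by DESeq2, 0 of 5 astrocyte, 0 of 5 microglial, 0 of 3 choroid plexus and 0 of the 2 thalamic and hypothalamic markers tested were called in either comparison. Those with an unadjusted p under 0.05 by edgeR were 3, 3, 0 and 0 in the first and 3, 4, 0 and 1 in the second, beside 6063 and 5803 of the 16610 genes tested.

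The other 14 phosphodiesterase genes were mostly of low level or not called. Of these, 9 passed the filter, and 5 photoreceptor genes (Pde6a, Pde6b, Pde6c, Pde6g and Pde6h) did not. Between zQ175 and WT mice 1 of the 9 was called, where 11.6% of all genes were. This was Pde4c, which was higher. Its mean was 1.84 CPM (SD 0.483, n = 8) in WT and 2.496 CPM (SD 0.547, n = 8) in zQ175 mice, and its groups overlapped. The log2 fold change of 0.44 (SE 0.149, adjusted p = 0.0248 by edgeR) was lost without WT male 1 (0.39), WT male 2 (0.39), zQ175 male 2 (0.36) or zQ175 female 4 (0.39), in males alone (0.37), in females alone (0.53) and with the cortical marker level in the model (0.35). Without Msh3, edgeR and DESeq2 called 0 of the 9, 0 had an unadjusted p under 0.05, and Pde4c had a log2 fold change of 0.22 (adjusted p = 0.331). The median over the 9 was −0.01 and −0.02. By level, Pde6d stood out at 81.7 TPM in WT mice. It encodes a carrier of prenylated proteins and was chosen after its values were seen.

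On the side of synthesis, 14 of the 15 adenylyl and guanylyl cyclase genes were tested, and 1 was called lower and 1 higher in each comparison, where 11.6% and 10.6% of all genes were called. No list given here was tested against those shares. Adcy5 averaged 1861 CPM in WT and 1032 CPM in zQ175 mice, and 1824 and 1058 CPM without Msh3. It fell by 0.85 (SE 0.0527, adjusted p = 4.68e-15 by edgeR) and by 0.79 (SE 0.0527, adjusted p = 4.83e-14) on the log2 scale. Npr2, the receptor guanylyl cyclase for C-type natriuretic peptide, went the other way, from 32.8 to 45.4 CPM and from 34.9 to 45.7 CPM. Its log2 fold changes were 0.47 (SE 0.0446, adjusted p = 1.93e-10 by edgeR) and 0.39 (SE 0.0448, adjusted p = 1.78e-08). The median over the cyclases was −0.13 and −0.08.

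All 14 genes of cyclic nucleotide effectors were tested, and 1 was called in each comparison, beside 11.6% and 10.6% of all genes. Prkar1b, a regulatory subunit of protein kinase A, averaged 356 CPM in WT and 447 CPM in zQ175 mice, with a log2 fold change of 0.33 (SE 0.0642, adjusted p = 0.000185 by edgeR). It was lost in males alone (0.24) and with the cortical marker level in the model (0.24). Without Msh3 its log2 fold change of 0.24 (adjusted p = 0.00600 by edgeR) passed the p threshold and did not reach 1.2-fold. Hcn4, a channel gated by voltage and cyclic nucleotides, was called without Msh3 at −0.29 (SE 0.104, adjusted p = 0.0388 by edgeR), from 6.89 to 5.65 CPM, and in 14 of 31 alternatives. That call was lost without Msh3-/- male 1 (−0.23), male 4 (−0.25) or female 2 (−0.28), without zQ175:Msh3-/- male 1 (−0.26), male 4 (−0.28), male 5 (−0.25) or female 2 (−0.26), in each sex alone (−0.37 in males, −0.20 in females), on TPM (−0.21) and with the cortical marker level in the model (−0.18). It was lost too with the replicate number as a block (−0.26), with no filter on low counts (−0.30) and with only the compared groups in the fit (−0.29). The median over the effectors was 0.05 and 0.04. For the interaction, edgeR and DESeq2 called 0 of the other phosphodiesterases, of the cyclases and of the effectors, where 1 effector gene had an unadjusted p under 0.05, so a call in 1 comparison and not in the other is no tested difference between them.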

How the data were processed

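The authors sequenced polyA-selected striatal RNA of 32 mice as paired-end reads. The authors deposited raw whole-number counts, and a table of TPM (named FPKM there, with every column summing to 1000000). The genome build was GRCm38.p6 by the submitters' processing notes. The aligner, the counter and its strand setting are not given in the sources used here. The 10 genes and all lists were chosen with earlier results of these data known. No column was left out, and 54495 of the 54532 gene identifiers were found in GENCODE M21.

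Counts were tested with edgeR 4.0.16 in R 4.3.3: TMM normalization, filterByExpr by genotype (16610 genes kept), robust quasi-likelihood fits, 1 model of the 4 genotypes and Benjamini-Hochberg adjustment over all genes tested. Called means an adjusted p under 0.05 and at least 1.2-fold; the sex by zQ175 test and the marker slope used the adjusted p alone. The sex tests used 8 groups of genotype and sex. The common biological coefficient of variation was 0.0985. Log2 CPM used a prior count of 2. The Pde10a to Pde1b ratio was tested by exact two-sided permutation. Intervals are from standard errors and approximate. The edgeR, DESeq2 and limma tests of zQ175 against WT mice, and the edgeR slope on a covariate, were tried on simulated counts. The genotype differences put in were larger than those of Pde1c, Pde2a and Pde4d. The interaction, the sex tests, the permutation test and the search for outlying mice were not simulated. Total counts were 12359347 to 25030335 per mouse, and the standard errors give the precision, spread between mice included.

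The alternatives were DESeq2 1.42.0 without independent filtering, RLE size factors, keeping genes of low count, keeping only genes of at least 10 counts in every mouse, a term for sex, a fit of the compared groups alone, the replicate number within sex as a block, leaving out each mouse in turn, limma 3.58.1 on log2(TPM + 0.1) or log2(TPM + 1) with a mean of at least 0.1 or on log2(TPM + 0.1) with no filter, no fold threshold, at least 1.5-fold, and each sex alone. A model with the log2 summed TPM of the 6 cortical markers was added after seeing the data, and so was the use of all these alternatives on called genes outside the 10.

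Genes named are the 10; of the lists of the other phosphodiesterases, cyclases (Adcy1 to Adcy10, Gucy1a1, Gucy1a2, Gucy1b1, Npr1, Npr2), and effectors (14 genes, among them Prkaca, Prkar1b, Prkg1, Rapgef3 and Hcn4), up to 4 called genes each; and the 5 genes nearest to Pde10a and to Pde1b. Markers were, for spiny projection neurons, 10 genes that include Drd1, Drd2, Adora2a, Ppp1r1b and Tac1; for cortical excitatory neurons, 6 that include Slc17a7 and Tbr1; for thalamus and hypothalamus, Slc17a6, Tcf7l2, Lhx9 and Hcrt; for oligodendrocytes, 5 that include Mbp and Mobp; for astrocytes, Aqp4, Gfap, Slc1a3, Aldh1l1 and Gja1; for microglia, Cx3cr1, P2ry12, Tmem119, Csf1r and C1qa; for endothelium and pericytes, Cldn5, Pecam1, Flt1, Rgs5 and Pdgfrb; for interneurons, Chat, Sst, Pvalb, Npy and Th; for choroid plexus, Ttr, Kl and Folr1. Some genes of these lists, and 1 list planned, are not reported here. Promoter windows are from RefSeq; protein sequences, though named in the rule for what to show, were not used here. Python 3.11.15, numpy 2.4.6, pandas 2.3.3 and matplotlib 3.10.9 made the summaries and figures.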

Additional observations from a re-analysis of the deposited data

Results flagged for a closer look

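Outlying mice were sought in 40 sets, 1 for each of the 10 genes in each of the 4 genotypes. In each, the gap between the most extreme mouse and the nearest other mouse was divided by the range of the 8 mice. This ratio was taken on log2 CPM, not on the CPM printed below, and the result holds for that scale. By it, 2 of the 40 sets passed Dixon's 95% critical value. Chance passes about 1 set in 20, which is 2 of 40. In Msh3-/- mice, male 2 was the lowest for Pde1a, at 27.5 CPM beside 46.0 to 71.6 CPM in the other mice, a ratio of 0.537 on log2 CPM. In zQ175 mice, male 4 was the lowest for Pde1a, at 31.7 CPM beside 50.5 to 69.0 CPM in the others, a ratio of 0.598 on log2 CPM. The cortical marker sum was 144.9 TPM in the first of these mice and 140.05 TPM in the second, the lowest of its genotype in each case. Of other mice with little marker RNA, Msh3-/- male 1 had 48.7 CPM at 145 TPM, WT male 2 had 44.2 CPM at 143 TPM, and WT female 4 had 32.7 CPM, the lowest WT value, at 152 TPM. The part of this in the Pde1a values was not tested.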

How the results depend on the processing

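With a limit of 1.5-fold in place of 1.2-fold, 3 of the 10 genes were called between zQ175 and WT mice, in place of 6. Between zQ175:Msh3-/- and Msh3-/- mice 2 were called, in place of 6. Of all 16610 genes tested, 538 and 503 were called at that limit. Fewer genes reach a higher limit. Leaving out 1 mouse at a time gave 6 to 6 in the first comparison and 4 to 6 in the second. Of all genes tested, 1786 to 2040 and 1580 to 1853 were then called. For Msh3-/- against WT, for zQ175:Msh3-/- against zQ175 and for the interaction, 0 to 0 of the 10 were called. Over the single genes of the 10 and all alternatives, 300 values in the first comparison stayed on the same side of the threshold, 8 lost the call and 2 gained it; in the second these were 284, 25 and 1. The cause of the lost calls was not tested. Among values that were not called, 3 in the first comparison and 6 in the second changed sign. They belong to Pde1a and Pde4a, which were called in neither comparison. The other comparisons gained no call, and 37 (Msh3-/- against WT), 22 (zQ175:Msh3-/- against zQ175) and 40 (interaction) values changed sign. The Pde10a to Pde1b difference ran from −0.45 to −0.41 and from −0.26 to −0.21 over its 20 alternatives, those without 1 mouse included.

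With the replicate number as a block, 6 and 4 of the 10 genes were called, where 1931 and 1694 of all 16610 genes tested were. The ratio differences were then −0.43 and −0.25. What mice of 1 number have in common is not stated, so pairing by number is an assumption. Over 45 pairs of mice of the same sex and number, the correlation across genes of their deviations from genotype-and-sex means ran from −0.195 to 0.269, with a median of −0.0137.

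The cortical marker model, and the use of the alternatives on genes outside the 10, were chosen after seeing the data. The interaction needs all groups, so the fit with only the compared groups was not run for it; sex by zQ175 was run with DESeq2 and RLE size factors. Pde4c, a gene of low level, had 18 to 85 counts a mouse, and the part of depth in its values was not tested.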
